A study of Mus musculus with 4 samples.

Results

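Heat shock-high smooth muscle cells of the mouse aorta are described here. In each of 4 single-cell libraries, cells were ranked by the summed UMIs of Hspa1a, Hspa1b, Dnajb1 and Atf3 per 10000 UMIs of the cell, and the top 15% were taken as members. This gave 1959 members among 13049 kept cells of 14696 deposited barcodes, or 348 of 2316 in WT 1, 474 of 3157 in WT 2, 625 of 4162 in KO 1 and 512 of 3414 in KO 2. Each library's members were compared with the 50% of its cells that had the lowest score, here called the low set (1158, 1579, 2081 and 1707 cells). The labels give 2597, 3420, 4376 and 3707 cells before and 2151, 3000, 4031 and 3246 after the authors' own filter, and the files hold 2769, 3565, 4504 and 3858 barcodes. Kept cells had at least 3000 UMIs, at least 500 genes and at most 10% mitochondrial UMIs.

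All cells came from the ascending aorta and arch of C57BL/6J mice at 12 weeks of age. WT mice carried Myh11-CreERT2 and the mT/mG reporter. KO mice carried both of these and floxed alleles of Tgfbr1 and Tgfbr2, the type I and type II receptors of TGF-beta. Tamoxifen had been given to both genotypes on 5 days, at 1 or 2 mg per day, when the mice were 4 or 11 weeks old. No label ties a course to a library. Cre is driven by the Myh11 promoter and the sort kept viable, GFP-positive single cells after digestion in the cold, so cells that never recombined the reporter were not meant to be sampled. How many mice a library holds is not given, so p-values rest only on these libraries, whose spread may be technical. For sets of cells compared within a library, they measure how much that difference varies between libraries. For KO against WT they measure the spread between libraries of a genotype.

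The heat shock response is the induction of molecular chaperones when proteins misfold. HSP70 proteins such as Hspa1a and Hspa1b bind unfolded stretches of protein, J-domain proteins such as Dnajb1 hand them clients, and nucleotide exchange factors release them. Heat shock factor 1 (Hsf1) drives these genes by binding repeats of a short GAA unit in alternating orientation. Atf3 is a stress-inducible transcription factor of the ATF/CREB family and an immediate early gene, a class that includes Fos, Jun and Egr1 and is transcribed within minutes of a stimulus. In vascular cells such programs are known both from injury in the animal and from tissue digestion and sorting.

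The bases just before the start sites of 5 genes that the results turn on are shown because they hold the motifs searched for: 3 chaperone genes, the AP-1 gene Jun and Atf3. Each run covers 150 bases that end at the base before the annotated start, from RefSeq on GRCm38.p6, read 5′ to 3′ on the gene's strand. Capitals mark matches to paired GAA units (GAANNTTC or TTCNNGAA) and, in Atf3, to the ATF/CRE motif TGACGTAA.
Hspa1a (chr17:34972157-34972306, minus strand): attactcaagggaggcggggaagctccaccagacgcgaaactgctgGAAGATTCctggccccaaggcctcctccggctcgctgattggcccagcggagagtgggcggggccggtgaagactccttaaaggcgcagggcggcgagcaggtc
Hspb1 (chr5:135887769-135887918, plus strand): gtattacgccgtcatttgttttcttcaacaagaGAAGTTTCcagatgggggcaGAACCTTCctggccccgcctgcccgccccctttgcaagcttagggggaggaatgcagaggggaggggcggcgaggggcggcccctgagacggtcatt
Hspe1 (chr1:55087998-55088147, plus strand): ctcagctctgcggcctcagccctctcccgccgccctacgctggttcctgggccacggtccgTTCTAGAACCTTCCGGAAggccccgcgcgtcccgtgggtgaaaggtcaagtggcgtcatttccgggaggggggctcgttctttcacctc
Jun (chr4:95052223-95052372, minus strand): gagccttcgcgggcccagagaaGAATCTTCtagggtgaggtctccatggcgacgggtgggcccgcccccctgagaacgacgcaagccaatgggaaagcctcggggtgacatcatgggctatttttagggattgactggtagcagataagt
Atf3 (chr1:191183334-191183483, minus strand): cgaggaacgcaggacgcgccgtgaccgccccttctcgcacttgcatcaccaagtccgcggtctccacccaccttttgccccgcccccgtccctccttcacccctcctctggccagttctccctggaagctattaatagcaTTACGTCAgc

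The Hspa1a run holds one GAANNTTC that begins 104 bases before the start, and the Hspa1b run has the same match at the same place, with 149 of 150 bases identical. Hspb1 has 2 such matches, at −117 and −97. In Hspe1, overlapping matches of both patterns form a run that begins at −89, and because Hspd1 is transcribed the other way from next to it, the same bases lie before one of the annotated starts of Hspd1. Jun has a GAANNTTC at −128, and Atf3 has TGACGTAA on its other strand at −10. Neither annotated promoter of Dnajb1 holds any of the motifs within the 300 bases searched. Those of the immediate early genes Fos and Fosb hold none of them either, and that of Atf3 holds no paired GAA units. Over both strands of all 32851 RefSeq promoters of 300 bases, 7.86% hold GAANNTTC and 8.52% hold TTCNNGAA, and of the 12720 promoters of genes tested below 5.71% and 6.91% do. GAANNTTC was in 10.01% of the 669 promoters of genes found higher in members and in 5.07% of the 533 of genes found lower, and TTCNNGAA was in 7.32% and 7.69%. Of the 63 promoters of listed chaperone genes tested 25.4% hold GAANNTTC and 17.5% hold TTCNNGAA, and of the 37 of those found higher 35.1% and 18.9% do. TGACGTAA is in 0.499% of all promoters and in 0.833% of those of tested genes. A match is a description of letters, not a binding site.

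The score that chose the members formed a continuous range with no gap at the threshold. The 85th percentile lay at 9.46 UMIs per 10000 in WT 1, 20.3 in WT 2, 15.5 in KO 1 and 21.4 in KO 2, against medians of 2.96, 4.99, 3.99 and 5.27. In WT 1 the lowest member stood at 9.465 and the highest other cell at 9.455, and 52, 61, 71 and 45 members lay within 10% of their library's threshold. WT 1 therefore contributed members of lower score than the other libraries did. The members carried between 51.9% and 56.8% of each library's UMIs of the 4 genes on 14.4% to 15.1% of all its UMIs. These values describe the selection and test nothing.

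**Figure D1:**
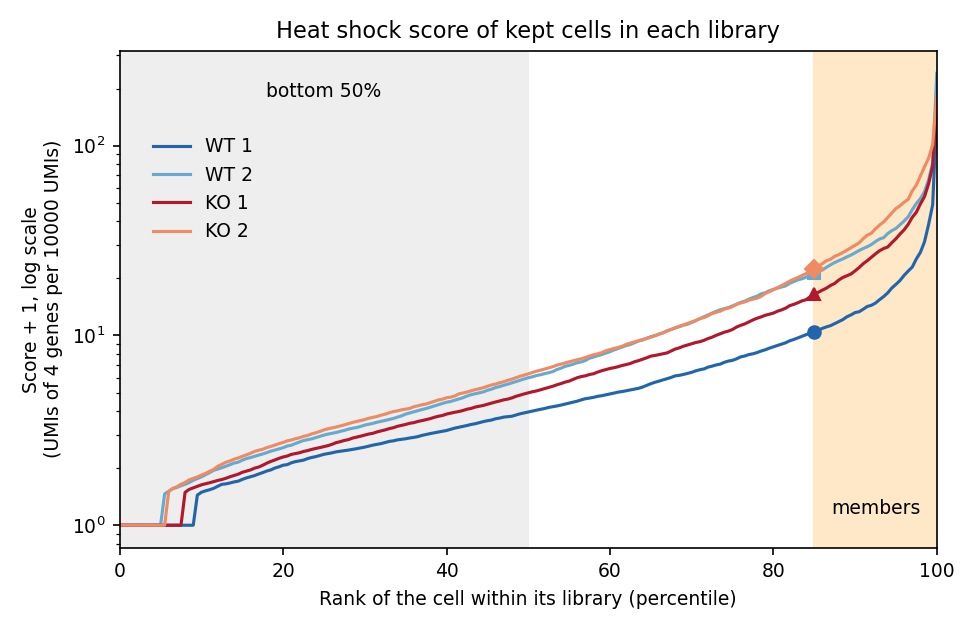
The score of kept cells (UMIs of the 4 genes per 10000, plus 1, log axis) against the rank of the cell within its library, 1 line for each library, with the 85th percentile marked and the low set and the members shaded. The lines cross the threshold without a step, and WT 1 lies below the others, with a threshold of 9.46 against 15.5 to 21.4.

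Hspa1a, an inducible HSP70, stood at 6.83, 10.7, 8.95 and 17.6 UMIs per 10000 in the members of WT 1, WT 2, KO 1 and KO 2, an order of libraries kept for all lists of 4 values below. In the low set it stood at 0.542, 0.819, 0.664 and 0.880. Hspa1b, its near-identical neighbour, stood at 5.56, 7.03, 5.65 and 12.6 in members and 0.386, 0.503, 0.420 and 0.632 in the low set. Both lie on chromosome 17 of GRCm38 (34969190 to 34972156 and 34956436 to 34959238), and how reads divided between 2 copies so alike is uncertain. Dnajb1 stood at 0.647, 1.31, 0.859 and 1.54 in members and 0.206, 0.221, 0.176 and 0.226 in the low set. Atf3 stood at 6.38, 16.6, 15.6 and 11.3 against 0.225, 0.578, 0.459 and 0.557. Each gene's members stood above all 4 low sets, which the selection brings about.

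Members and low set were close in depth and quality, with slightly fewer UMIs in the members of every library. Median UMIs per cell were 14874.5, 15075.5, 13329 and 14650 in members and 15085.5, 15654, 14056 and 14671 in the low set. Median mitochondrial shares were 4.60%, 3.95%, 3.87% and 3.76% against 4.61%, 3.83%, 3.70% and 3.80%. With each cell thinned to 3000 UMIs, members held a median of 1399 to 1430 genes and the low set 1433 to 1445. Any 2 libraries shared 3 to 6 cell barcodes. The 8 smooth muscle markers fixed for the check, among them Myh11, Acta2 and Tagln, summed to 47065 to 54913 CPM in members and were all detected, which goes with the label. CPM here are a gene's UMIs per 1000000 UMIs of that set of cells, without the 4 score genes and on a TMM scale common to each comparison. Rankings by part of the score leave out only the ranking genes, and totals of all kept cells leave out none. Values of the same cells therefore differ slightly between comparisons. Marker sums of cells split by the patterning panel described below use all UMIs without scaling. Macrophage markers summed to at most 2.32 CPM in members, with C1qa, Adgre1 and Ptprc at 0 in the members of all 4 libraries. In the low set they summed to 15.4 CPM in KO 1 and to at most 0.451 CPM in the others.

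Cells rich in the 3 chaperone transcripts were also rich in Atf3, although they were chosen without it. When cells were ranked by Hspa1a, Hspa1b and Dnajb1 alone, Atf3 stood at 328, 1047, 1108 and 976 CPM in the top 15% and 102, 207, 168 and 124 in the low set (log2 difference 2.45, SE 0.08, adjusted p = 4.0e-09). The fold was 3.23 in WT 1, 5.07 in WT 2, 6.58 in KO 1 and 7.87 in KO 2. The converse also held when cells were ranked by Atf3 alone. Hspa1a was then at 379.9, 693, 669 and 1207 CPM in the top 15% and 139, 163, 114 and 178 in the low set (log2 difference 2.24, adjusted p = 1.0e-10). Hspa1b differed by 2.16 and Dnajb1 by 1.65. The difference was larger in KO than in WT for Hspa1a (by 0.87, adjusted p = 0.0323) and Hspa1b (by 0.93, adjusted p = 0.0387). This test did not pass for Dnajb1 (adjusted p = 0.683) or, in the other ranking, for Atf3 (adjusted p = 0.157). The Hspa1a fold was 2.72, 4.27, 5.86 and 6.80, smallest in WT 1, where Atf3, the ranking gene, was lowest over all kept cells. What part this has in the difference was not tested, and these fits were not repeated in other settings or without the library block. The 2 rankings picked partly different cells: the top 15% of one held 29.3%, 38.4%, 48.0% and 48.4% of the top 15% of the other.

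Across the other 12972 genes tested, 679 were higher in members (5.23%) and 561 lower (4.32%), by edgeR's quasi-likelihood test with the library as a block. A mean of 20 CPM was reached by 575 of the 679 genes that rose (84.7%), 195 of the 561 that fell (34.8%) and 5711 of all genes tested (44%). The median rise among called genes was 0.28 and the median fall −0.54 on the log2 scale, and 43 genes rose and 158 fell at least 2-fold, 27 and 7 of them with a mean of 20 CPM or more. Of the called genes, 630 rises and 513 falls had the same sign in all 4 libraries, beside 13% and 17.3% of all tested genes that were higher or lower in all 4. The middle 35% of cells lay between low set and members in every library for 305 of the rises and 184 of the falls. The share over all tested genes is not given for this, so these counts are a description only. With library totals left unscaled, the same model called 355 rises and 1087 falls, and the median of all genes moved from −0.01 to −0.08. DESeq2 called 248 rises and 109 falls, all of them among edgeR's calls of the same sign. Leaving out KO 1 raised the falls to 870.

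The rise of chaperones went well beyond the genes of the score. Of the 12 other HSP70, HSP90 and HSP110 genes tested, 7 rose and none fell (median log2 difference 0.27, all genes −0.01). Hspa8, the constitutive HSP70 of the cytosol, rose from 1254, 1159.6, 797 and 874 CPM in the low set to 2230.2, 1999, 1618 and 2200.2 in members (log2 difference 1.01, SE 0.04, adjusted p = 4.6e-09). Members were higher in every library, and the 2 sets did not overlap. Hsp90aa1, the inducible cytosolic HSP90, rose from 670.2, 688, 692 and 715 to 1145, 927, 1152 and 1714 CPM (log2 difference 0.81, SE 0.07, adjusted p = 3.1e-06), most in KO 2. Hsph1, an HSP110 that recharges HSP70, rose from 138, 108, 53.7 and 63.2 to 246, 182, 94 and 191 CPM (log2 difference 1.02, SE 0.08, adjusted p = 3.2e-06). Members stood above the low sets of their own genotype, and in 3 libraries above all 4 low sets, while the KO 1 members stood below both WT low sets. Picked after their values were seen, the mitochondrial Hspa9 rose by only 0.20, and the HSP70 relatives Hspa4, Hspa13 and Hspa14 had differences of 0.05, −0.03 and −0.04 that did not pass the test.

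Co-chaperones showed the same pattern, with 15 of 27 higher and none lower (median 0.24). Dnajb4, a J-domain partner of HSP70, rose from 213, 206, 151 and 237 to 403, 514, 448 and 847 CPM (log2 difference 1.43, SE 0.06, adjusted p = 4.7e-09). Dnaja1, another J-domain protein, rose from 264, 249.6, 258 and 272 to 607, 452, 519.9 and 843 CPM (log2 difference 1.19, SE 0.08, adjusted p = 2.6e-07). In both genes each library's members stood above all 4 low sets. Bag3, a nucleotide exchange factor that links HSP70 to autophagy, rose from 49.4, 49, 49.8 and 50.9 to 80.04, 71.9, 82.8 and 116 CPM (log2 difference 0.81, SE 0.07, adjusted p = 2.9e-06). The HSP90 co-chaperones Stip1, Cacybp and Ahsa1, picked after their values were seen, rose by 0.60, 0.65 and 0.38.

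Small heat shock proteins hold unfolding proteins in solution, and 4 of the 6 tested rose. Hspb1, which also regulates actin filaments, rose from 1566, 1419.6, 1655 and 1798 to 3523, 2831, 2910.0 and 5533 CPM (log2 difference 1.16, SE 0.08, adjusted p = 8.7e-07). Its level in KO 2 members was well above the other 3 libraries. Hspb8, a partner of Bag3, rose by 0.25 and Cryab, alpha-B crystallin, by 0.22. Of 14 chaperonin genes 7 rose, led by the mitochondrial pair Hspd1, from 169.8, 168, 186 and 185 to 259, 234, 244 and 339 CPM (log2 difference 0.60, SE 0.06, adjusted p = 2.0e-05), and Hspe1, by 0.47 (SE 0.06). Cct3, a subunit of the cytosolic TRiC ring, rose by 0.36 (SE 0.06). Of the small heat shock proteins 1 rose with DESeq2 and 2 without KO 2, and of the chaperonins 4 rose without the library block.

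Of the 15 genes listed as heat shock factors and other heat-induced genes, 4 rose. Ier5, an immediate early gene that promotes Hsf1 activity, rose from 71.7, 61.8, 71.5 and 60.1 to 115, 125, 185 and 199.8 CPM (log2 difference 1.22, SE 0.06, adjusted p = 4.4e-08). Ubb, a ubiquitin gene, rose by only 0.14 (SE 0.03). With DESeq2 or with unscaled totals 2 of the 15 rose. The transcript of Hsf1 itself differed by 0.07 (adjusted p = 0.594). Over all 12972 genes tested, 3046 had an unadjusted p under 0.05 in one direction or the other. Among 31 proteasome genes none passed in edgeR or in DESeq2 (median 0.07), although 8 were higher at an unadjusted p under 0.05, and without KO 1 2 of them rose.

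**Figure D2:**
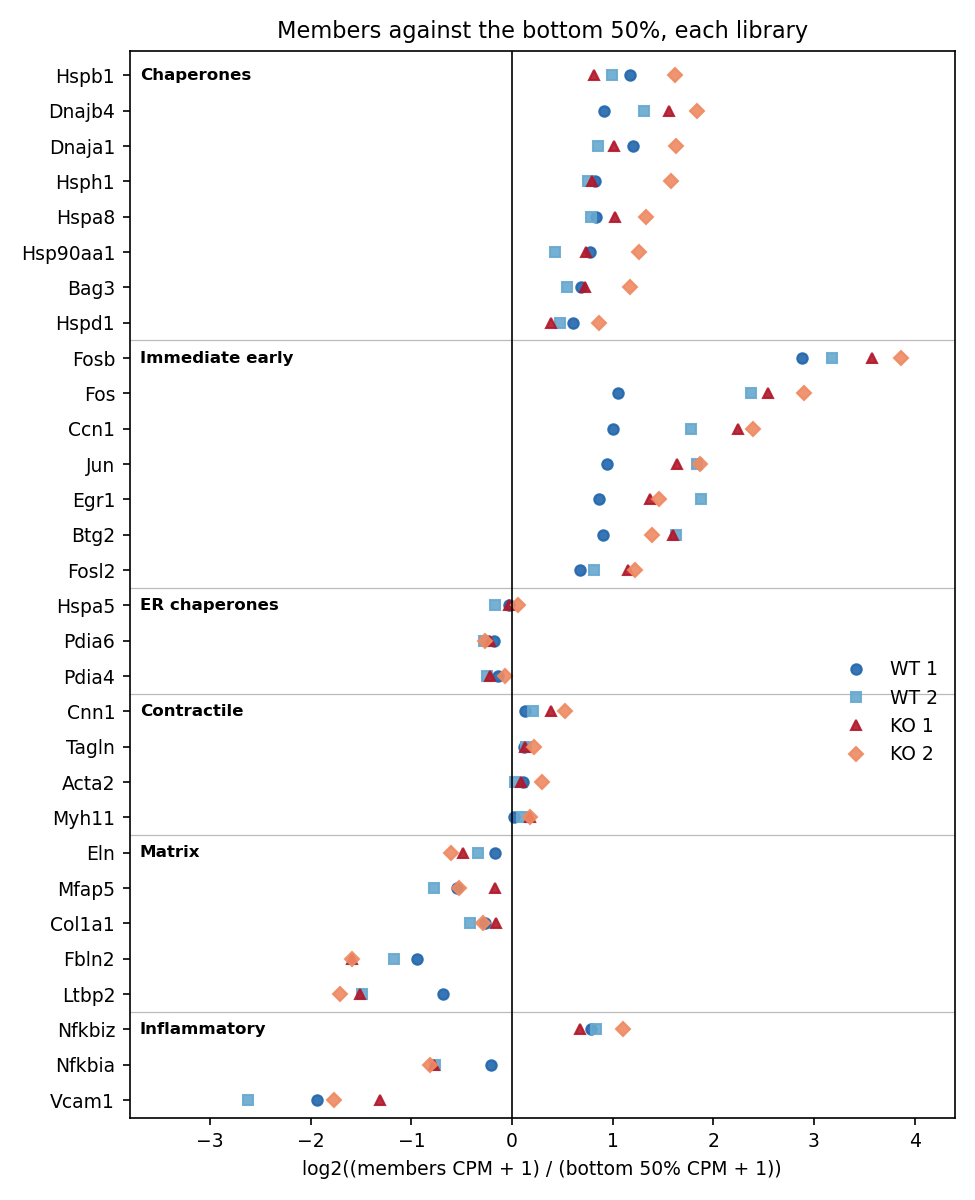
The log2 ratio of CPM + 1 in members over CPM + 1 in the low set, 1 point for each library, for genes grouped by role. Chaperone and immediate early genes lie to the right of 0 in all 4 libraries, the ER chaperone Hspa5 lies near 0, and the matrix genes and Vcam1 lie to the left.

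Immediate early genes outside the score showed larger differences than the chaperones outside it. Of 32 tested, 26 were higher in members and 1 was lower, with a median of 0.83. The 3 chaperone genes of the score are not in this comparison. Atf3, itself an immediate early gene, gave 26.2% to 50.2% of the members' score UMIs. Fosb, a subunit of the AP-1 factor, was nearly silent in the low set at 5.97, 5.91, 1.77 and 1.69 CPM, stood at 9.14, 27.1, 2.91 and 8.81 CPM in the middle cells and reached 50.3, 61.7, 32.2 and 38.2 CPM in members (log2 difference 3.80, SE 0.09, adjusted p = 3.1e-11). Fos rose from 266, 164, 29.5 and 23 to 554, 854, 177 and 179 CPM (log2 difference 2.26, SE 0.15, adjusted p = 4.3e-07). The members of both KO libraries were at about the level of the WT 2 low set, so for Fos the sets separate only within a genotype. Jun, its usual partner, rose from 562, 462, 429 and 263 to 1081, 1653, 1339.9 and 959 CPM (log2 difference 1.59, SE 0.10, adjusted p = 1.7e-07). Ccn1, a secreted matricellular protein, rose from 766, 599, 174 and 156 to 1536, 2058, 830.0 and 825 CPM (log2 difference 1.87, SE 0.09, adjusted p = 1.7e-08).

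The zinc finger factor Egr1 rose from 139, 93.6, 71.5 and 43.1 to 253, 346, 186 and 120.5 CPM and the antiproliferative gene Btg2 from 313, 295, 233 and 134 to 586, 911, 709.8 and 353 CPM, by 1.42 (SE 0.11) and 1.40 (SE 0.08). Fosl2, another AP-1 subunit, rose by 1.00 (SE 0.05). The exception was Klf10, a TGF-beta-inducible factor, which fell by 0.77 on the log2 scale (adjusted p = 0.00685) from a level of at most 11.7 CPM. It was named because no other gene of the list fell. Chosen by chaperones alone or by Atf3 alone, the cells again had 26 or 27 of the 32 genes higher and 1 lower, beside 4.56% and 4.81% of all genes higher and 3.03% and 3.66% lower. The smallest fold change from low set to members was in WT 1 for Fosb, Fos, Ccn1, Jun and Egr1. In CPM, of these genes only Jun gained least there. The members of WT 1 had the lowest scores.

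**Figure D3:**
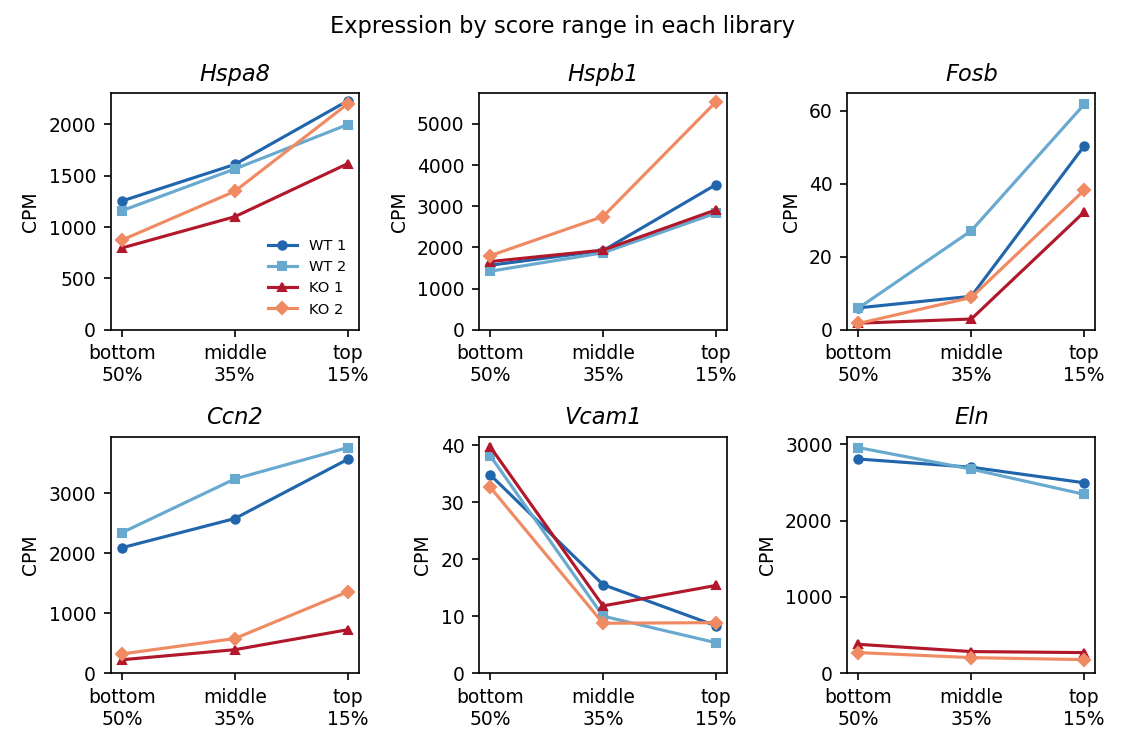
CPM of 6 genes in the bottom 50%, middle 35% and top 15% of cells by score, 1 line for each library. Hspa8, Hspb1, Fosb and Ccn2 rise over the 3 ranges in all libraries, Eln falls in all of them, and Vcam1 drops mainly between the low set and the middle.

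Other stress programs followed in part or not at all, beside 5.23% of all tested genes that rose and 4.32% that fell. At an unadjusted p under 0.05, 3046 of all 12972 genes differed in one direction or the other. Of 18 integrated stress response genes tested, 5 rose and 2 fell, and without WT 1 the rises were 3. Ppp1r15a, a phosphatase subunit that restarts translation, rose by 0.91 (SE 0.06) and the factor Atf4 from 95.1, 75.5, 57.4 and 56.3 to 114, 118, 91 and 109 CPM (log2 difference 0.65, SE 0.06, adjusted p = 1.4e-05). Nupr1, a small chromatin-associated stress protein, was lower (log2 difference −0.49, adjusted p = 3.0e-05). The amino acid response genes Asns, Chac1 and Trib3, picked after their values were seen, did not pass the test (differences −0.12, 0.25 and −0.19). Among 21 chaperones and sensors of the endoplasmic reticulum none rose and 3 fell. The falls were 5 without WT 1, 1 without WT 2 and 0 with DESeq2, beside 9 at an unadjusted p under 0.05 in edgeR. Hspa5, the main HSP70 of that compartment and also picked afterwards, stood at 636, 689.9, 428 and 343 CPM in the low set and 624, 612, 419.5 and 358 in members (adjusted p = 0.67). Pdia6, Pdia4 and Sdf2l1 fell by 0.23, 0.16 and 0.36, and with unscaled totals 9 of the 21 fell. Of 17 oxidative stress and metallothionein genes only Ftl1, ferritin light chain, passed, at −0.14. Of 14 p53 targets 1 rose, Gdf15, a secreted stress cytokine, from 5.12, 3.07, 9.65 and 7.0 to 6.77, 9.996, 35.9 and 27.8 CPM (log2 difference 1.54, SE 0.15, adjusted p = 1.8e-05), while Bbc3 and Phlda3 fell.

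Contractile transcripts were slightly higher in members than in the low set. Of 27 contractile genes 17 rose and none fell, with a median of only 0.12. The 8 smooth muscle markers summed to 47558, 50456, 55295 and 52186 CPM in the middle cells. Members were lower than these in WT 1, WT 2 and KO 1, at 47065, 49077 and 54698 CPM. Without the patterning-panel cells described below, the markers summed to 45277, 48772, 52446 and 51645 CPM in the low set. In members they then summed to 46694, 48328, 53874 and 52862 CPM, lower in WT 2. Cnn1, calponin, rose from 1515, 1650.0, 1665 and 1680.1 to 1654, 1906, 2178 and 2428 CPM (log2 difference 0.33, SE 0.03, adjusted p = 1.2e-05), and Tagln, transgelin, rose by 0.16 (SE 0.02). With DESeq2 8 of the 27 rose, with unscaled totals 9 rose and 1 fell, without WT 2 11 rose, and without the library block 2 did. Among the largest rises of all genes was that of Abra, an actin-binding protein of muscle, from 18.5, 20.8, 16.8 and 27.2 to 35.4, 57.4, 51.2 and 113 CPM (log2 difference 1.57, SE 0.09, adjusted p = 6.9e-08). Xirp1, an actin-binding repeat protein, and Rcan1, a calcineurin inhibitor, rose by 1.30 (SE 0.07) and 1.46 (SE 0.10). Actc1, cardiac alpha-actin, was all but confined to KO: it rose there from 15.4 and 11.2 to 63.1 and 81.8 CPM, but stood at no more than 1.63 CPM in any set of WT cells. Its average call ended when members were compared with all other cells (adjusted p = 0.229), when the mitochondrial limit was 5% (adjusted p = 0.324), when Atf3 alone chose the cells (adjusted p = 0.747) and without the library block (adjusted p = 0.0758).

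Smooth muscle matrix transcripts were lower in members. Of 28 collagen and elastic fibre genes tested 18 fell and none rose (median −0.22). Eln, elastin, stood at 2809, 2959, 378 and 269.9 CPM in the low set and 2498, 2346, 269.9 and 177 CPM in members (log2 difference −0.39, SE 0.04, adjusted p = 8.0e-06). The fall within each library was small beside the gap between genotypes. Mfap5, a microfibril protein, fell from 508, 649.9, 307 and 405 to 348, 379, 272 and 280.1 CPM (log2 difference −0.50, SE 0.05, adjusted p = 4.7e-05), and Fbln2, fibulin 2, fell by 1.57 on the log2 scale from about 10 CPM. Ltbp2, a microfibril-associated protein of the latent TGF-beta binding family, fell from 64.8, 109.9, 26.3 and 38.8 to 40.02, 38.6, 8.59 and 11.2 CPM (log2 difference −1.42, SE 0.11, adjusted p = 1.9e-06). Without cells rich in markers of other cell types and the 5% with most UMIs, 16 of the 28 fell, and without the cells of the patterning panel described below 15 did. Without the library block 10 fell.

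Vcam1, a leukocyte adhesion molecule, had the largest fall of the genes whose mean reached 20 CPM. It dropped from 34.8, 38.1, 39.7 and 32.6 CPM in the low set to 15.5, 10.001, 11.8 and 8.76 in the middle cells and 8.31, 5.35, 15.4 and 8.86 in members (log2 difference −2.01, SE 0.11, adjusted p = 6.4e-08). Nfkbia, the inhibitor and target of NF-kB, fell from 89.8, 94.2, 100.3 and 87.9 to 77.7, 55.2, 58.3 and 49.6 CPM (log2 difference −0.64, SE 0.07, adjusted p = 4.8e-05). Nfkbiz, an inducible nuclear member of that inhibitor family, rose instead, from 25.3, 29.2, 16.9 and 14.3 to 44.5, 52.8, 27.5 and 31.9 CPM (log2 difference 0.89, SE 0.07, adjusted p = 3.3e-06). Of the 13 inflammatory genes tested 4 rose and 5 fell, so the list had no single direction. Without WT 1 the falls were 3. Other large falls were in Rgs5, a regulator of G-protein signalling, from 241, 490.1, 138 and 372 to 164, 153, 62 and 59.8 CPM, in the Wnt modulator Sfrp2, from 233, 401, 236 and 313 to 134, 127, 150.1 and 134 CPM, and in Igfbp2, an IGF-binding protein, with a log2 difference of −0.89 (SE 0.09). Thrombomodulin (Thbd), glypican 3 (Gpc3), the laminin chain Lamc3 and decorin (Dcn) fell by 1.03, 0.92, 0.94 and 0.87 on the log2 scale. The call of Dcn ended with the top 5% (adjusted p = 0.092), with the score without Atf3 (0.14), without marker-rich cells (0.277), in DESeq2 (0.219) and without the library block (0.0537).

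Some markers of other cell types were lower in members. Of the endothelial markers 4 could be tested and 3 were lower in members (Vwf, Pecam1 and Egfl7), and of 5 fibroblast markers Pi16 and Ly6a were lower. The fibroblast list summed to 9.83 to 48.6 CPM in the low sets and 2.90 to 20.99 CPM in members, and was lower in the members of all 4 libraries, although in KO 1 and KO 2 it was higher in members (16.6 and 20.99 CPM) than in the middle cells (14.7 and 14.2 CPM). The endothelial list summed to 15.7, 17.1, 23.3 and 22.5 CPM in the low set and 14.1, 18.6, 9.90 and 9.27 CPM in members, so it was slightly higher in the members of WT 2. The macrophage list was higher in the members of WT 1, at 2.32 against 0.398 CPM. Cells with 3 or more UMIs of other cell types' markers made up 2.15% to 2.95% of members and 3.71% to 6.80% of the low set. With these and the 5% of cells with most UMIs left out, 544 genes rose and 373 fell. What part these cells have in the other falls was not tested.

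A group of developmental transcription factors was concentrated in low-score cells. Dlx5, Dlx6, Msx2, Tfap2b and Pax9, homeobox and related factors that pattern the neural crest and pharyngeal arches, were noticed among the falls and are therefore described only. Dlx6 stood at 6.71, 19, 8.41 and 26 CPM in the low set, 5.01, 5.52, 4.37 and 11.1 in the middle cells and 2.90, 1.41, 0.954 and 2.04 in members. Cells with at least 3 UMIs of the 5 genes together made up 4.49, 13.3, 6.39 and 19.3% of the low set, 2.96, 2.99, 2.95 and 7.20% of the middle cells and 1.72, 1.05, 0.640 and 0.781% of members. The 95% Wilson intervals, which cover counting error only and are no test here, were 3.44% to 5.84%, 11.7% to 15.1%, 5.42% to 7.52% and 17.5% to 21.2% in the low set and 0.793% to 3.71%, 0.451% to 2.45%, 0.249% to 1.63% and 0.304% to 1.99% in members. In the low set these cells held 79.3% to 91.6% of the panel's UMIs. Their smooth muscle markers summed to 30389 to 35269 CPM there, against 45277 to 52446 CPM in the other cells of the low set. Prrx2, a homeobox factor outside the panel, fell from 18.2, 43.9, 55 and 91.5 to 15.3, 11.1, 23.7 and 22.6 CPM over all cells (log2 difference −1.44, SE 0.17, adjusted p = 1.2e-04). Without the panel's cells 678 genes rose and 407 fell, and 340 of these falls were shared with the 561 (60.6% of the 561 and 83.5% of the 407).

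Housekeeping programs moved little. Of 33 ribosomal protein genes 1 rose (median 0.06), of 31 nuclear respiratory chain genes 4 rose (median 0.08), and of 13 genes of the mitochondrial genome 7 rose, by at most 0.12. Without WT 2, with DESeq2 or with unscaled totals none of the mitochondrial genome genes rose, and without WT 1 4 of them did. Of the respiratory chain genes none rose without WT 1, without KO 2 or with DESeq2, and 1 rose without WT 2. None of 23 interferon-stimulated genes rose, 1 fell (Ifit2, −0.39), and of 11 cell cycle genes 1 rose and 1 fell. Leaving out 1 library moved these counts to at most 4. Of 10 nuclear-retained and long noncoding RNAs 5 rose, among them Snhg1, Snhg12 and Neat1, and 1 fell, and without WT 1 the rises were 2. Of splicing and RNA-binding factors 15 of 23 were higher (median 0.16). Tra2b, a splicing activator, rose from 108, 125, 111 and 99.3 to 124, 161, 143 and 137 CPM (log2 difference 0.36, SE 0.04, adjusted p = 1.3e-04), and the RNA helicase Ddx5 rose by 0.28 (SE 0.03). With DESeq2 6 of the 23 rose, with unscaled totals 8 did, and without the library block 4 did. The eGFP transcript of the recombined reporter was higher in members, at 6100, 6666, 8574 and 9346 CPM against 5346, 5404, 7406 and 6888 CPM (log2 difference 0.30, SE 0.03, adjusted p = 4.5e-05). Tgfbr1 and Tgfbr2 did not pass the test (adjusted p = 0.304 and 0.569).

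Tested within each genotype, 161 genes rose (1.24%) and 104 fell (0.802%) in WT, and 546 rose (4.21%) and 385 fell (2.97%) in KO. Of the 679 genes higher on average, 140 passed in both genotypes, and 546 were farther from 0 in KO than in WT, with a median of 0.33 against 0.24. The chaperone lists did not differ in direction: 5 and 6 of the 12 HSP70, HSP90 and HSP110 genes, 9 and 14 of the 27 co-chaperones and 21 and 25 of the 32 immediate early genes rose in WT and KO, and none of these lists had a fall except Klf10 in KO. Leaving out KO 2 left 253 rises and 159 falls in KO, and leaving out WT 2 left 131 rises and 52 falls in WT, while leaving out WT 1 gave 237 and 231. The WT counts also moved when a KO library was left out of the shared fit, to 350 and 301 without KO 1 and to 350 and 299 without KO 2, as did the KO falls, to 680 without WT 1 and 698 without WT 2. A gene that passed in one genotype only is not thereby shown to differ between them.

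The difference between the genotypes was itself tested, and 5 genes passed (0.0385%), 2 more positive (0.0154%) and 3 more negative (0.0231%) in KO. At an unadjusted p under 0.05 there were 725 of the 12972 genes, near the share expected if no gene differed. DESeq2 called 2 genes after adjustment. Ccn2, a matricellular protein and a classic TGF-beta target, rose from 2089, 2340.3, 224 and 320.4 to 3562, 3757, 723 and 1355 CPM. The difference was 0.73 (SE 0.06) in WT and 1.91 (SE 0.07) in KO, which differ by 1.17, SE 0.09, adjusted p = 8.7e-05. Its highest KO level was still below the WT low sets, and both KO libraries gained fewer CPM than either WT library. Id1, a helix-loop-helix factor induced by BMP signalling, stood at 233, 219, 239.8 and 208 CPM in the low set and 245, 249.6, 154 and 115 CPM in members. Its low sets were alike in both genotypes, and only the KO members were lower (difference between the effects −0.87, SE 0.09, adjusted p = 0.00169).

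Pdzrn4, a PDZ domain protein with a RING finger, went from 21 and 21.6 to 23.0 and 34.4 CPM in WT and from 39.1 and 35.4 to 24.8 and 18.1 CPM in KO, a difference between the effects of −1.23, SE 0.18, adjusted p = 0.0253. Piezo2, a mechanically gated ion channel, was scarce, at 4.55 and 8.31 against 5.99 and 8.45 CPM in WT and 3.02 and 4.55 against 0.596 and 0.545 CPM in KO (−2.84, SE 0.44, adjusted p = 0.0451). DESeq2 kept the calls of Ccn2 and Id1 and lost those of Pdzrn4 (adjusted p = 0.146) and Piezo2 (0.364). Pdzrn4 also lost its call with a mean of 20 CPM required (adjusted p = 0.0781) and without marker-rich cells (0.162). Piezo2 lost its call with the top 5% (adjusted p = 0.813), the score without Atf3 (0.121), Atf3 alone (0.344) and without marker-rich cells (0.185). Without the patterning-panel cells the difference for Piezo2 was −1.81 and did not pass (adjusted p = 0.292). Of the 17 TGF-beta target genes tested, 4 rose on average, among them Ccn2, Tgfb3 and Skil, and 3 fell (Ltbp2, Tgfb1 and Id1). Tgfb3, a TGF-beta ligand, differed by 0.45 in WT and 0.89 in KO, and Ltbp2 by −1.15 and −1.69, and neither pair passed the test of its difference. With fewer libraries the fit called more genes: 94 without WT 1, 79 without WT 2, 174 without KO 1 and 62 without KO 2. No gene passed with the library block left out.

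**Figure D4:**
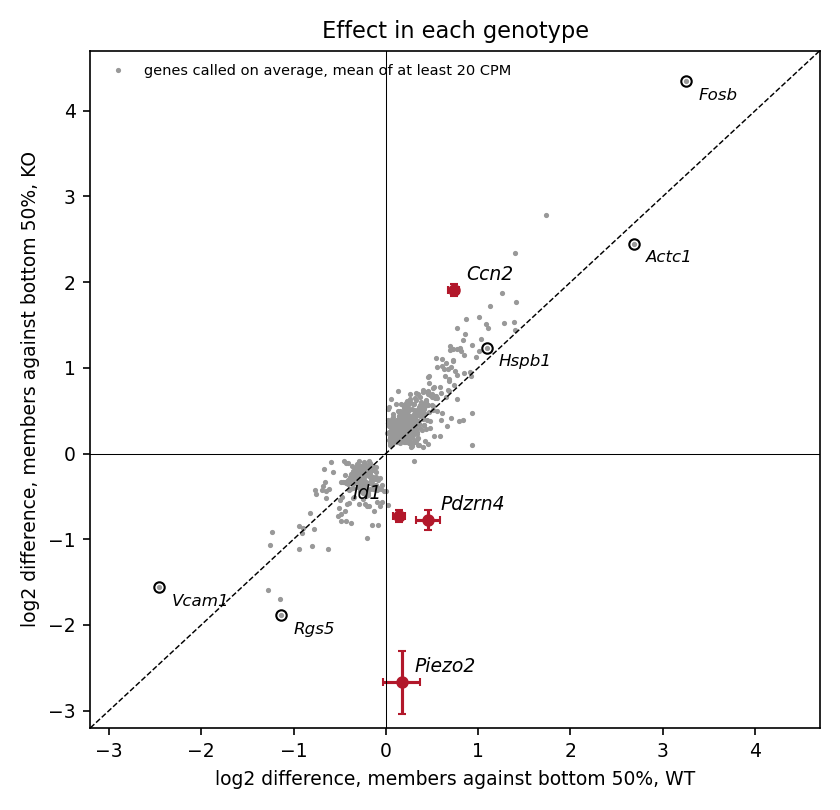
Log2 difference of members against the low set in KO (vertical axis) against that in WT (horizontal axis). Grey points are genes called on average whose mean reached 20 CPM, red points with SE bars are 4 of the genes whose effects differed between genotypes, and the dashed line marks equal effects; Ccn2 lies above the line, and Id1, Pdzrn4 and Piezo2 lie below it.

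Members differed in whether Atf3 or the chaperone genes gave most of their score. Atf3 gave more than the other 3 genes together in 116 of 348 members in WT 1 (33.3%), 234 of 474 in WT 2 (49.4%), 327 of 625 in KO 1 (52.3%) and 68 of 512 in KO 2 (13.3%). Libraries of 1 genotype therefore differed widely. Against the remaining, chaperone-led members of the same library, 5 of 11094 genes were higher in Atf3-led members (0.0451%) and 62 lower (0.559%). This comparison was added after the members had been examined.

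Other chaperones were prominent among the genes lower in Atf3-led members. The split itself takes cells with a low share of the 3 chaperone transcripts of the score. Genes that vary with these transcripts or with Atf3 are therefore set apart by the split, and the p-values below do not test that link. Of the listed HSP70, HSP90 and HSP110 genes 5 of 11 were lower, of the co-chaperones 8 of 27, and of the small heat shock proteins and the chaperonins 2 each. Hspb1 stood at 1692, 2109, 2233 and 3148 CPM in Atf3-led and 4373, 3453, 3600.2 and 5882 CPM in chaperone-led members (log2 difference −0.90, SE 0.06, adjusted p = 6.6e-10). Dnaja1 stood at 334, 317, 419.5 and 690.1 against 732, 572, 621 and 863 CPM (log2 difference −0.71, SE 0.05, adjusted p = 2.8e-09), and Hspa8 was lower too (log2 difference −0.55, SE 0.04, adjusted p = 2.8e-09). Fosb went the other way, at 85.7, 95, 44 and 189.8 CPM in Atf3-led and 30.8, 25.8, 18.8 and 14.1 CPM in chaperone-led members (log2 difference 2.21, SE 0.20, adjusted p = 1.6e-07). Of the 31 immediate early genes tested 2 were higher and 2 lower, and Fos, Jun and Egr1 did not pass. Ccn2 was lower in Atf3-led members (log2 difference −0.56, SE 0.05, adjusted p = 2.8e-08). Gdf15 was lower as well (log2 difference −1.43, SE 0.19, adjusted p = 9.0e-05), with WT values of 1.12 and 2.75 against 9.49 and 16.9 CPM and KO values that lay close together. Leaving out KO 1 left 1 higher and 11 lower genes, and leaving out KO 2 left 1 and 14. Leaving out WT 2 gave 34 and 115, and leaving out WT 1 gave 15 and 59.

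**Figure D5:**
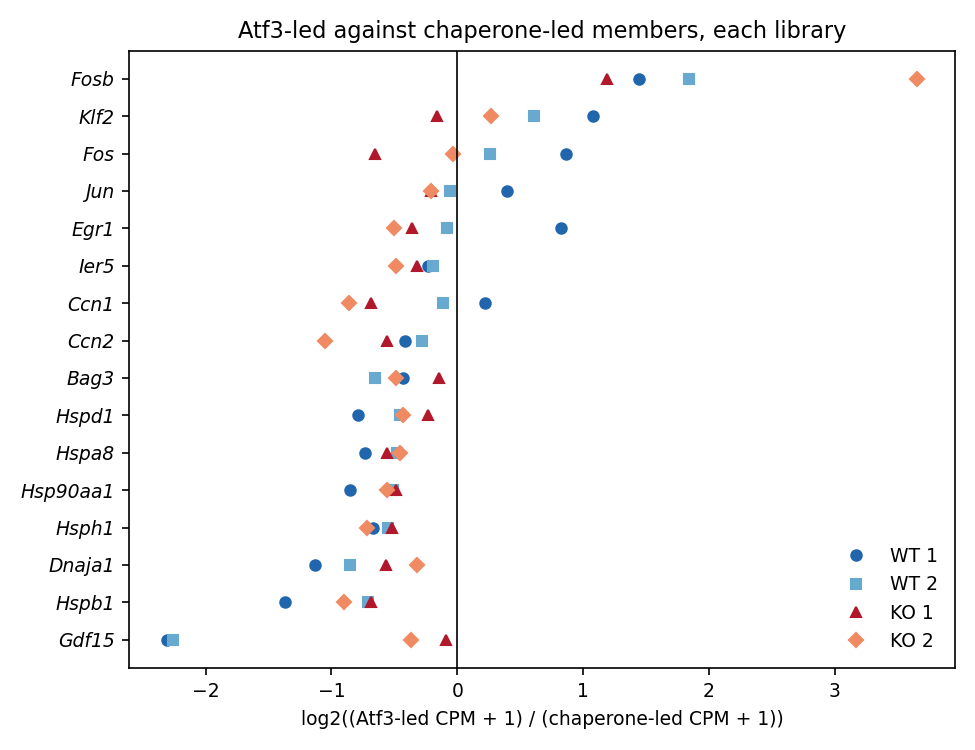
The log2 ratio of CPM + 1 in Atf3-led members over CPM + 1 in chaperone-led members, 1 point for each library. Fosb lies to the right of 0 in all 4 libraries, the chaperones from Bag3 to Hspb1 lie to the left in all 4, and Fos, Jun and Egr1 lie on both sides.

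Within the members, KO was compared with WT. Of 11706 genes 638 were higher in KO (5.45%) and 756 lower (6.46%). Of 11 HSP70, HSP90 and HSP110 genes 1 was lower (Hspa2), of 27 co-chaperones 1 was higher (Bag2), and none of 14 chaperonins passed. Of 6 small heat shock proteins 2 were higher (Hspb6 and Hspb8) and 1 was lower (Hspb7). Hspa8 stood at 2175, 1956, 1594 and 2173 CPM (log2 difference −0.14, SE 0.11, adjusted p = 0.486) and Hspb1 at 3436, 2770.2, 2867 and 5463 CPM (log2 difference 0.41, SE 0.21, adjusted p = 0.237), and in both genes the WT and KO values overlapped. Hspb6, picked after its values were seen, stood at 178, 205, 417 and 388 CPM (log2 difference 1.06, SE 0.09, adjusted p = 1.2e-05).

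Immediate early genes were more often lower than higher in KO members, 13 against 4 of 32 (median −0.34). Fos stood at 540.1, 836, 174 and 177 CPM (log2 difference −1.98, SE 0.15, adjusted p = 5.8e-06) and Dusp1, a MAP kinase phosphatase, at 673, 669, 310.1 and 321 CPM (log2 difference −1.10, SE 0.07, adjusted p = 1.7e-06). In the low set, where 6.96% of 13648 genes were higher in KO and 8.77% lower, the same genes had differences of −3.04 and −1.67, and 12 of the 32 were lower and 3 higher. Fosl2 and Cebpd went the other way, by 0.68 and 1.01, and Jun did not pass (adjusted p = 0.426). These genes were picked after their values were seen. Of the 21 endoplasmic reticulum genes 13 were lower in KO members and none higher (median −0.42), with Hspa5 at 609, 599, 413 and 354 CPM (log2 difference −0.66, SE 0.09, adjusted p = 3.8e-04). In the low set 15 of them were lower.

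Among the largest differences by the rule for named genes, Actc1 stood at 1.13, 0.276, 62.2 and 80.8 CPM (log2 difference 6.76, SE 0.30, adjusted p = 5.9e-08) and the secreted inhibitor chain Itih4 at 183, 172, 1187 and 1073 CPM (log2 difference 2.67, SE 0.08, adjusted p = 2.4e-09). Tnnt2, cardiac troponin T, was higher by 1.69. The basement membrane collagen Col15a1 stood at 229.9, 225, 3.29 and 2.69 CPM (log2 difference −6.24, SE 0.13, adjusted p = 7.8e-11), the microfibril glycoprotein Mfap4 at 846, 841, 46.5 and 50.7 CPM, and Pmepa1, which damps TGF-beta signalling in a feedback loop, at 1073, 1143, 139.8 and 137 CPM (log2 difference −3.01, SE 0.08, adjusted p = 4.5e-10). The rule for these genes required that the WT and KO values did not overlap, so their lack of overlap is no result. Of all tested genes, 27.3% and 27.6% were above or below WT in both KO libraries. The low sets gave 7.06, 2.51, 1.36, −5.89, −4.18 and −2.96 for the same 6 genes, and the 2 sets of cells share their libraries. Ccn2 was lower in KO members (log2 difference −1.81, SE 0.20, adjusted p = 9.3e-05), and in the low sets its difference was −3.03.

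The level of the 4 score genes over all kept cells did not enter the choice of members, since the ranking was within libraries. None of them passed the test of KO against WT in all kept cells, in which 1334 of 14466 genes were higher (9.22%) and 1619 lower (11.2%). Hspa1a stood at 199.8, 319.9, 244 and 432 CPM (log2 difference 0.38, SE 0.27, adjusted p = 0.359) and Hspa1b at 156, 206, 158 and 315 CPM (0.39, SE 0.27, adjusted p = 0.350). Dnajb1 stood at 32.1, 47.7, 34.5 and 52.7 CPM (0.12, adjusted p = 0.736) and Atf3 at 162, 445, 378 and 328 CPM (0.22, adjusted p = 0.706). WT 1 was lowest in all 4 genes, KO 2 was highest in Hspa1a, Hspa1b and Dnajb1, and WT 2 was highest in Atf3. The sign rested on single libraries: without KO 2 the differences were −0.0901 for Hspa1a, −0.19 for Hspa1b and −0.22 for Dnajb1, and without WT 1 they were −0.13 for Dnajb1 and −0.33 for Atf3. Without WT 2, Atf3 was higher in KO by 1.12 (adjusted p = 0.00011), and without KO 1, Hspa1b was by 0.80 (adjusted p = 0.0144). With no filter on low counts the differences of Hspa1a (adjusted p = 4.2e-06), Hspa1b (adjusted p = 3.9e-06) and Atf3 (adjusted p = 0.0173) passed.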

How the data were processed

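Each library's UMI count matrix was used as deposited by the authors. Counts came from Cell Ranger 5.0.1 per the file headers, and mm10, GENCODE M21 and Seurat 4.0 are named without a role in the submitters' processing notes. No doublet caller was run, and a fit without the 5% of cells with most UMIs stands in for one. Counts were summed over members and over the low set of each library, and edgeR 4.0.16 in R 4.3.3 (filterByExpr, TMM, quasi-likelihood F test) was fitted with a library block and 1 effect per genotype, without the 4 score genes. KO against WT was fitted on the members' sums with no block. Adjusted p-values are Benjamini-Hochberg values over all genes tested, with a threshold of 0.05, and the same tests were checked on simulated counts. Kept libraries held 35044732, 49540931, 59037481 and 50403865 UMIs.

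Members and gene lists were chosen with earlier results of these data known. By rule, named genes had the largest differences (mean from 20 CPM up), ranked in the top 3 of a list by p, or ranked in the top 5 by p for the difference between genotypes. The largest differences also had to pass the test, with the same sign in all 4 libraries. For KO against WT in members, no overlap between the genotypes was required instead. DESeq2 1.42.0, other filters, scores, cell sets and scalings were tried. Replicate numbers of WT and KO were not taken to pair libraries: deviations from the genotype means correlated at −0.18 in members and −0.01 in all kept cells. With 2 libraries per genotype this check cannot exclude a pairing. Some genes that the rule names are not reported here.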

Additional observations from a re-analysis of the deposited data

Results flagged for a closer look

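The difference between members and the low set differed between KO and WT for 5 genes, 4 of them given here, by the interaction contrast of edgeR's quasi-likelihood fit. The log2 difference was larger in KO by 1.17 for Ccn2 (adjusted p = 8.7e-05), although both KO libraries gained fewer CPM than either WT library. It was more negative in KO for Id1, at −0.87 (adjusted p = 0.00169), for Pdzrn4, at −1.23 (adjusted p = 0.0253), and for Piezo2, at −2.84 (adjusted p = 0.0451). Both KO libraries lay on the same side of both WT libraries in each of the 4. With 2 libraries a genotype, no group was large enough for a check of single outlying libraries.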

How the results depend on the processing

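Counts of genes depended on the tool and the block more than directions did. Without the library block (no replicate block between the sets of cells of 1 library) 225 genes rose and 149 fell on average, 16 and 3 in WT and 106 and 41 in KO, and 0 differed between genotypes. DESeq2 gave 248 and 109 on average, 82 and 20 in WT, 188 and 56 in KO, 2 that differed, 313 and 449 for KO against WT in members, and 1 and 21 for Atf3-led members. With a mean of at least 20 CPM there were 409 and 320 on average, 43 falls in WT, 290 and 193 in KO, 2 that differed, and 369 higher in KO members. With no filter there were 261 and 245 in WT, 649 falls in KO, 76 that differed and 989 higher in KO members. With unscaled totals there were 355 and 1087 on average, and 257 and 767 in KO. The top 5% gave 249 falls on average, 43 in WT, 297 rises and 133 falls in KO, and 238 and 368 for KO against WT. Without marker-rich and high-UMI cells there were 373 falls on average, 57 in WT and 231 in KO, and 2 genes differed. The score without Atf3 gave 40 falls in WT. Genes that differed between genotypes numbered 9 with the thinned score, 30 within depth bins, 24 against the other 85%, 16 with at least 1000 UMIs, 13 with at most 5% mitochondrial UMIs, 34 without patterning-panel cells and 17 with Atf3 alone. The low set had 1197 genes lower in KO. The cause of these changes was not tested.

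Leaving out 1 library gave 520 to 935 rises and 426 to 870 falls on average, 131 to 350 and 52 to 301 in WT, 253 to 735 and 159 to 698 in KO, and 62 to 174 genes that differed. It gave 454 to 598 higher and 592 to 733 lower in KO members, and 1 to 34 and 11 to 115 for Atf3-led members. The genotype left with 1 library was assumed to vary like the other. For KO against WT over all cells the ranges were −0.0901 to 0.75 for Hspa1a, −0.19 to 0.80 for Hspa1b, −0.22 to 0.43 for Dnajb1 and −0.33 to 1.12 for Atf3. The sign turned without KO 2 for Hspa1a (−0.0901), Hspa1b (−0.19) and Dnajb1 (−0.22), and without WT 1 for Dnajb1 (−0.13) and Atf3 (−0.33). With no filter the differences passed for Hspa1a (0.38, adjusted p = 4.2e-06), Hspa1b (0.39, adjusted p = 3.9e-06) and Atf3 (0.22, adjusted p = 0.0173) in edgeR. With the replicate number as a block they passed for Hspa1a (0.36, adjusted p = 0.00345) and Hspa1b (0.32, adjusted p = 0.0427), and KO members had 536 genes higher and 689 lower. With the numbers of the KO libraries crossed, chosen after seeing the data, the block gave 685 and 776. The Atf3-alone score, unscaled totals, patterning-panel cells and the Atf3-led comparison were also added after seeing the data. For single named genes, 195 of the other settings ended a call and none turned a direction.

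With 2 libraries per genotype, small differences between genotypes could not be resolved, and genes under a few CPM, such as Piezo2, rest on few UMIs.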
